A study of Arabidopsis thaliana with 6 samples.

Results

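AT3G28780, AT3G28790, AT3G28830 and AT3G28840 are 4 protein-coding loci of Arabidopsis thaliana that lie close together on chromosome 3. They were chosen because each is read by a probe set of its own and because all 4 fell about 5-fold in flower buds of ddm1 mutants. They make up 4 of the 13513 probe sets on the array that name a single gene. Since the fall itself selected them, their difference between the genotypes is given below as a description, with no test.

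Expression was measured on 6 one-colour arrays. The ddm1 group held 3 replicates of plants mutated in DDM1, taken at inbred generation F6, and the wild type group held 3 replicates of the accession Col. The series design gives 3 biological replicates in each genotype, although no label says whether they came from separate plants. The p-values measure only the spread between these samples. Both groups are RNA of unopened flower buds, and the plants grew in soil under an 18-hour light period (23 °C). The labels name no ddm1 allele and give no inbred generation for wild type, so the loss of DDM1 and the inbreeding history cannot be told apart.

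DDM1 is a chromatin remodelling protein. It gives DNA methyltransferases access to compact chromatin, and in its absence DNA methylation is lost and many transposable elements become active. Heritable loss of methylation builds up when ddm1 plants are inbred. Neighbouring genes that arose by tandem duplication often share regulatory sequence as well as coding sequence, and unopened buds contain anthers, in which many genes act only during a short stage of pollen development. The RefSeq table used here gives none of the 4 loci a symbol or a function, and their protein sequences were not analysed here, so their relatedness was not checked.

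The deposited log2 expression values had been centred, probe set by probe set, on a baseline near the wild type arrays. A value of 0 therefore means a level near that baseline, and a negative value a lower level. Centring removes the absolute level, so how abundant a transcript was, and whether it lay above background, is unknown. For that reason the labelled tissue could not be checked by marker levels. DDM1 itself was not analysed here, so the mutant label was not checked on the transcript of the mutated gene. Over all 22746 probe sets tested, the median difference of ddm1 from wild type was 0.0045 on the log2 scale, and 9.17% were called in either direction at an adjusted p under 0.05 by limma.

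All 4 genes were far lower in every ddm1 array than in any wild type array. AT3G28780 stood at -2.56, -2.20 and -2.18 in ddm1 replicates 1, 2 and 3, against 0, 0.39 and -0.027 in wild type replicates 1, 2 and 3. The ddm1 values lay at least 2.15 below the wild type values, and replicate 1 was the lowest of the mutants. AT3G28790 stood at -2.26, -2.25 and -2.30 in ddm1, against 0.033, 0.13 and -0.024 in wild type. Its 3 mutant values were almost the same, with an SD of 0.026, below the median SD of 0.077 over all probe sets in ddm1.

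AT3G28830 stood at -2.51, -2.19 and -2.17 in ddm1, against 0.11, 0.25 and 0 in wild type. AT3G28840 stood at -2.77, -2.17 and -2.39 in ddm1, against 0, 0.27 and 0.11 in wild type. In both genes ddm1 replicate 1 was again the lowest array, and the genotypes were separated by a gap of 2.17. Non-overlap alone was not rare on these arrays, since every ddm1 array lay below every wild type array in 16.7% of all probe sets.

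**Figure D1:**
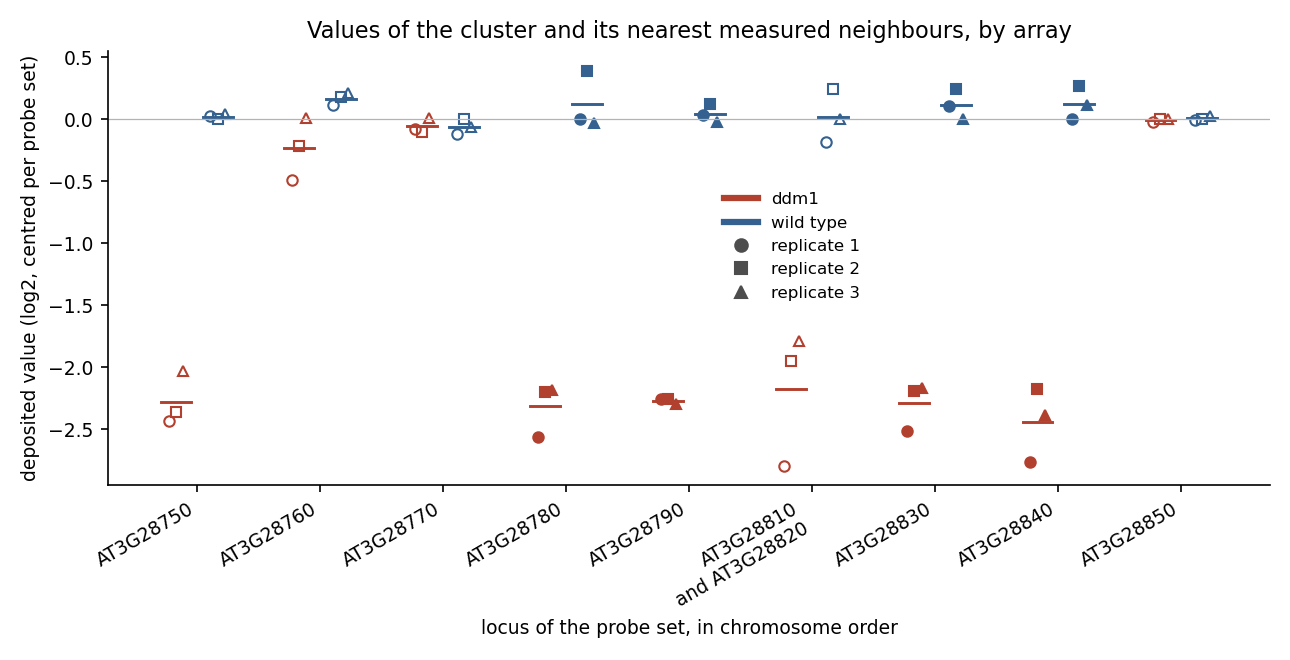
Deposited log2 values of the 4 cluster members (filled symbols) and of their nearest measured neighbours (open symbols), by array, in the order of the loci; horizontal lines are group means. The ddm1 values of the members lie between -2.77 and -2.17 and their wild type values between -0.027 and 0.39, while AT3G28770 and AT3G28850 show no such gap.

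The falls were of nearly equal size. In ddm1 relative to wild type, AT3G28840 was lower by 2.57 ± 0.17 on the log2 scale (difference -2.57, SE from limma, 3 arrays in each genotype), a 5.94-fold change. AT3G28780 differed by -2.44 ± 0.16 (5.42-fold lower), AT3G28830 by -2.41 ± 0.12 (5.32-fold lower) and AT3G28790 by -2.32 ± 0.047 (4.98-fold lower). The median of the 4 was -2.42. From the largest to the smallest fall the differences spanned only 0.25, and the order of the 4 genes was not tested. The order was not the same in every mutant array. Counted from each gene's own wild type mean, AT3G28840 was the lowest in ddm1 replicates 1 and 3, and AT3G28780 in replicate 2.

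Counted from each gene's own wild type mean, the members were closest to each other in ddm1 replicate 2. There all 4 lay between -2.33 and -2.30, a spread of 0.025. In ddm1 replicate 3 they lay between -2.51 and -2.29, and in ddm1 replicate 1 between -2.90 and -2.30. The mean fall was 6.19-fold in replicate 1, 4.96-fold in replicate 2 and 5.14-fold in replicate 3. AT3G28790 was the gene that did not share the deeper fall of replicate 1.

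The wild type arrays also moved alike. Wild type replicate 2 was the highest of the 3 for all 4 members, by 0.082 (AT3G28790) to 0.27 (AT3G28780) above the gene's wild type mean. Of the 387 other probe sets that were called lower by at least 2-fold, 38.0% were highest in wild type replicate 2 and 47.3% in wild type replicate 1. Of the same 387, 62.0% were lowest in ddm1 replicate 1, as were 3 of the 4 members. The deeper values of ddm1 replicate 1 are thus seen at most strongly lowered probe sets, and its part in the size of the members' fall can be read from the fit without it, which gave a median difference of -2.32.

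Among all genes the members lay far out on the lower side. A fall at least as large as that of AT3G28790, the smallest of the 4, was reached by 34 of 13513 single-gene probe sets (0.252%), the members included, and a fall of at least 2-fold by 246 (1.82%). Among 12374 protein-coding probe sets AT3G28840 had the 17th, AT3G28780 the 22nd, AT3G28830 the 24th and AT3G28790 the 33rd deepest fall. The protein-coding gene next above AT3G28840 in this order was AT5G44300 (5.98-fold lower), and the one next below AT3G28790 was AT4G00350 (4.97-fold lower). Neither lies in the cluster. These ranks follow from how the genes were chosen and describe only where the selection lies.

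**Figure D2:**
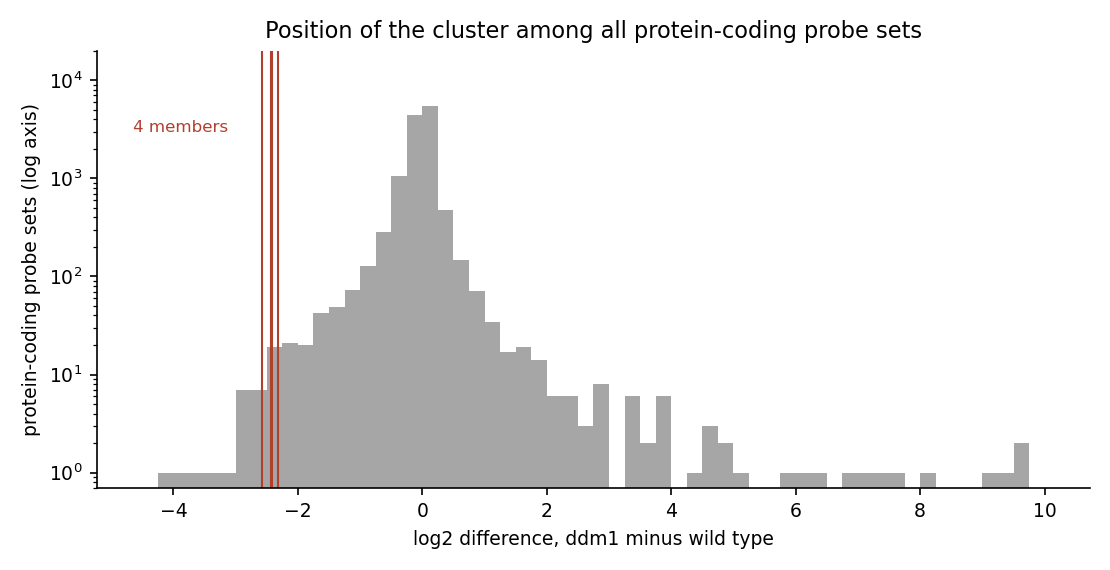
Number of protein-coding probe sets (log axis) by log2 difference of ddm1 from wild type, in steps of 0.25, with the 4 members as vertical lines. The members stand between -2.57 and -2.32, and 33 of the 12374 protein-coding probe sets (0.267%), the members included, fell at least as far as AT3G28790.

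The next question was how far the fall extends along the chromosome. In the RefSeq order of loci the cluster spans 8 positions from AT3G28780 to AT3G28840. The other 4 positions are AT3G28785, the pseudogene AT3G28800, AT3G28810 and AT3G28820. The platform annotation, which names no gene for 8730 probe sets, gives none of them a probe set of its own. One probe set lists both AT3G28810 and AT3G28820 and so names neither, and whether it also reads transcripts of the members was not tested. It stood at -2.80, -1.95 and -1.79 in ddm1, against -0.18, 0.25 and 0 in wild type. It was not used to choose the members, and it fell by 2.20 ± 0.29 (SE, 95% confidence interval of the difference -2.93 to -1.47, adjusted p = 0.0118 by limma with Benjamini-Hochberg adjustment over all probe sets). Like 3 of the members it was lowest in ddm1 replicate 1 and highest in wild type replicate 2. Without variance moderation the call no longer held (adjusted p = 0.0642, the highest of its alternatives, which ran from 0.00177).

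Outside the cluster the 15 loci on each side were examined, of which 9 had a single-gene probe set. A probe set is called at an adjusted p under 0.05. Of the 9, 2 were lower in ddm1 and 0 were higher by limma, where 5.68% of all probe sets were called lower and 3.50% higher. At an unadjusted p under 0.05, 5 of the 9 were lower and 0 higher, where 14.6% of all probe sets were lower and 8.49% higher. The median difference of the 9 was -0.13, against 0.0045 over all probe sets.

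The large fall next to the cluster was at AT3G28750, which lies 3 positions before AT3G28780. It stood at -2.44, -2.37 and -2.03 in ddm1, against 0.025, 0 and 0.041 in wild type. The difference of -2.30 ± 0.11 (SE, 95% interval -2.58 to -2.02) is a 4.92-fold fall, with an adjusted p of 0.000242 by limma. AT3G28750 was not used to choose the members. The interval takes in the differences of all 4 members, but these have errors of their own and were selected for their fall. Whether AT3G28750 and the members differ in their fall was not tested. The call held under every alternative run, with adjusted p-values up to 0.0108.

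Between AT3G28750 and the cluster the large fall was interrupted. AT3G28770, the locus directly before AT3G28780, stood at -0.077, -0.10 and 0.013 in ddm1, against -0.12, 0 and -0.063 in wild type. The groups overlapped, and the difference of 0.0049 ± 0.048 (SE) had a 95% interval of -0.12 to 0.13, which leaves out changes of the size seen at its neighbours. AT3G28760, before it, stood at -0.49, -0.21 and 0.0076 in ddm1, against 0.11, 0.18 and 0.21 in wild type. Its smaller difference of -0.40 ± 0.13 (SE, 95% interval -0.72 to -0.077) was not called (adjusted p = 0.143 by limma). Over the alternatives its adjusted p ran from 0.0141, a call gained with array weights, to 0.294. Whether AT3G28770 lay above background in these buds is unknown, and a change at a transcript below background would not show.

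On the other side no fall was called at the nearest measured loci. AT3G28850, the locus directly after AT3G28840, stood at -0.018, 0 and 0 in ddm1, against -0.0068, 0 and 0.030 in wild type. Its difference was -0.014 ± 0.026 (SE, 95% interval -0.080 to 0.052, adjusted p = 0.840 by limma). Further out, AT3G28870 (0.026 ± 0.036) and AT3G28900 (-0.13 ± 0.046) were not called either. Whether these loci lay above background is unknown, and a fall at a transcript below background would not show. They therefore do not fix where the fall ends.

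The second called neighbour was AT3G28700, 10 positions before the cluster, with a much smaller difference. It stood at -0.30, -0.17 and -0.24 in ddm1, against 0.41, 0.17 and 0.079 in wild type. The difference of -0.45 ± 0.095 (SE, 1.37-fold lower) had an adjusted p of 0.0464 by limma. This call was lost whichever of the 6 arrays was left out (adjusted p = 0.0520 to 0.125). AT3G28720 (-0.30 ± 0.11) and AT3G28690 (-0.088 ± 0.10) were not called.

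**Figure D3:**
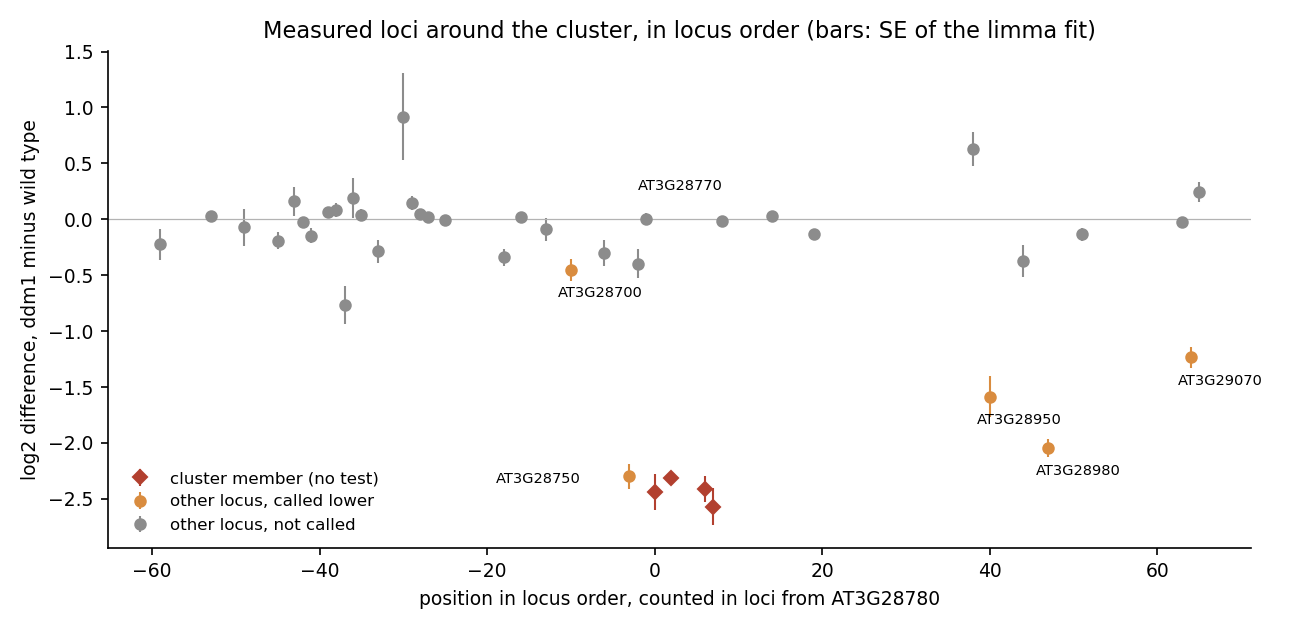
Log2 difference of ddm1 from wild type, with the SE of the limma fit, for the members (diamonds) and for every other locus with a single-gene probe set within 60 loci (circles), against the position in locus order. The members and AT3G28750 lie between -2.57 and -2.30, and AT3G28770, between AT3G28750 and the members, lies at 0.0049.

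Runs of neighbouring loci that fell together were few. Windows of 10 consecutive loci were searched for at least 3 loci called lower by at least 2-fold, a call made for 1.72% of all probe sets. Of 26671 windows with 3 or more measured loci, those that met this merged into 3 runs. The run that holds the members extends from AT3G28750 to AT3G28840, with 5 of 7 measured loci lowered and differences between -2.57 and -2.30. Since 4 of its 5 lowered loci are the members, their choice alone made it a run, and only AT3G28750 adds to it. Another run on chromosome 3 covers AT3G01240, AT3G01250 and AT3G01270, with differences between -2.37 and -1.88. The longest, on chromosome 1 from AT1G23520 to AT1G23690, has 8 of 13 measured loci lowered and differences between -2.13 and -1.03.

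The chromosome 1 run includes a block of neighbouring loci, AT1G23560 to AT1G23590. There AT1G23580 was 2.93-fold lower in ddm1, AT1G23590 2.82-fold, AT1G23570 2.57-fold and AT1G23560 2.04-fold. The falls of the chromosome 3 cluster, 4.98-fold to 5.94-fold, were larger than these 4 values in every case, but both groups were chosen for their fall and the difference between them was not tested.

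Single-gene probe sets were also ranked by how closely they followed the members' mean profile over the 6 arrays. The measure was the root mean square distance, on the log2 scale, between values counted from the gene's own wild type mean. Each member was set against the mean of the other 3, and lay 0.055 (AT3G28830), 0.089 (AT3G28780), 0.17 (AT3G28840) or 0.19 (AT3G28790) from it. The nearest other gene was AT3G01270 at 0.11, which belongs to the other chromosome 3 run. It stood at -2.55, -2.18 and -2.15 in ddm1, against -0.17, 0.35 and 0.060 in wild type.

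Next in order came AT3G07820 (0.12), AT5G19580 (0.13), AT5G61720 (0.13), AT1G20135 (0.13) and AT5G07430 (0.16). Their falls ran from 4.94-fold (AT5G19580) to 5.63-fold (AT5G07430). AT5G19580, like AT3G28790, had nearly equal values in the 3 mutant arrays, at -2.26, -2.22 and -2.17. In the same ranking AT3G28750 was the 9th at 0.17. The distances of the members above are to the mean of the other 3, while those of the 6 genes are to the mean of all 4. Against the mean of all 4, which includes the member itself, AT3G28840 lay at 0.13 and AT3G28790 at 0.14. Both values fall within the 0.11 to 0.16 of the 6 genes. All 6 were selected by these values, and with 6 arrays in 2 genotypes the measure mostly reads the size of the fall.

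**Figure D4:**
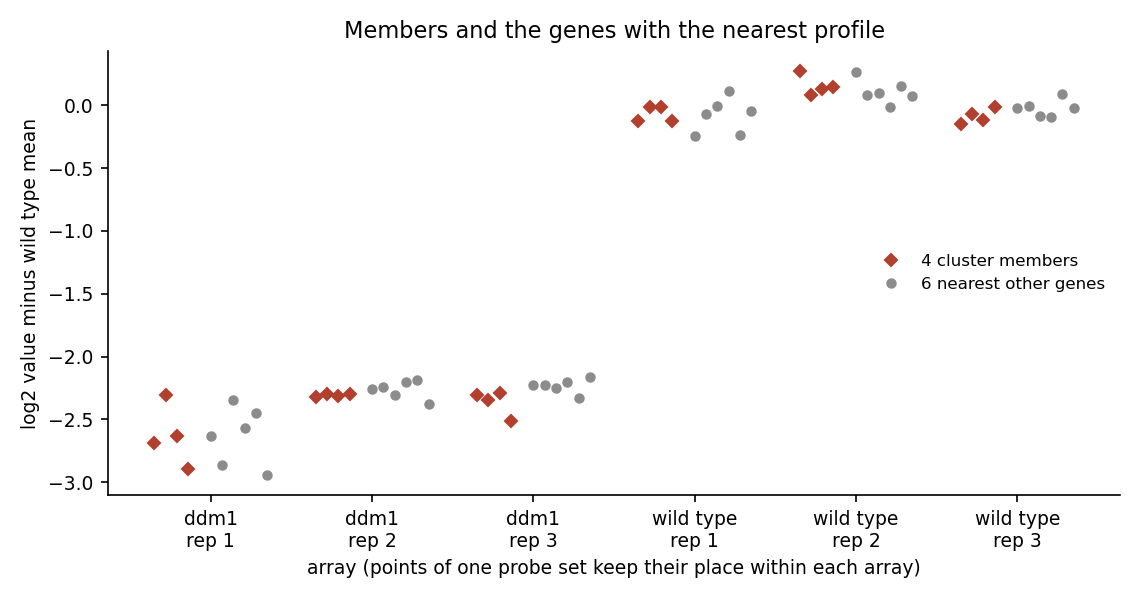
Log2 values counted from each gene's own wild type mean, by array, for the 4 members (diamonds) and the 6 genes with the nearest profile (circles), each probe set keeping its place within an array. In ddm1 replicate 2 the members lie between -2.33 and -2.30, and in ddm1 replicate 1 they spread from -2.90 to -2.30.

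Markers of the cell types in a bud were read in the same arrays. The lists were chosen with earlier results of these data known, so their counts are a description and no independent test. In bulk tissue, fewer cells of a type and less RNA per cell cannot be told apart. Of 24 genes in a pollen list 14 were measured, and 6 of these fell and 0 rose in ddm1 by limma (7 and 0 at an unadjusted p under 0.05), with a median difference of -0.52. Over all probe sets, 5.68% fell and 3.50% rose by the adjusted p, and 14.6% were lower and 8.49% higher by the unadjusted p. VEX1, which encodes a sugar transporter of pollen, differed by -3.61 ± 0.36 (SE, adjusted p = 0.00463), a larger fall than any member's. AT5G45880 differed by -1.93 ± 0.11, the reproductive actin gene ACT12 by -1.78 ± 0.092 and the pollen MADS-box gene AGL66 by -0.65 ± 0.033, with adjusted p-values of 0.000439 or less by limma. The 8 others were not called, among them the actin gene ACT11 (0.031 ± 0.13). The pollen tube receptor kinase genes ANX1 (0.0090 ± 0.035) and ANX2 (-0.0086 ± 0.051) were also among the 8. Whether ACT11, ANX1 and ANX2 lay above background in these buds is unknown.

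In the list for the tapetum, which feeds developing pollen, and for the pollen wall, 7 of 36 genes were measured. Of these, 5 fell and 0 rose by limma (6 and 0 at an unadjusted p under 0.05), against the same shares of all probe sets, with a median of -0.82. They included EXL5, a lipase gene (-1.27 ± 0.18 SE), AMS, a transcription factor gene of the tapetum (-1.23 ± 0.084), A9, an anther gene (-1.09 ± 0.099), and SHT, a hydroxycinnamoyl transferase gene (-0.82 ± 0.041), with adjusted p-values of 0.0151 or less. None of the 7 fell as far as a member. Leaving out wild type replicate 2 or 3 left 3 of them called, and EXL5 was lost in both fits (adjusted p = 0.0556 and 0.0581 by limma).

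The averages of these lists were lower in every ddm1 array. Over the 14 pollen genes the array means ran from -0.84 to -0.63 in ddm1 and from 0.0018 to 0.084 in wild type. VEX1, AT5G45880 and ACT12, with ddm1 means of -3.47, -1.96 and -1.69, weigh most in these averages. The averages are no sign that the whole list moved, since 8 of the 14 were not called. Over the 7 tapetum and wall genes they ran from -0.88 to -0.63 in ddm1 and from 0.039 to 0.23 in wild type. The part of a change in pollen or tapetum content in the fall of the cluster was not tested.

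Other lists moved little or the other way. Whether the genes that moved little lay above background is unknown, and below it a fall would not show. Of 4 measured meiosis genes 0 were called by limma and 0 had an unadjusted p under 0.05, and their differences were -0.19 ± 0.095 for ZYP1B, -0.072 ± 0.066 for SPO11-1, -0.053 ± 0.058 for SDS and 0.0071 ± 0.027 for MER3. Of 3 photosynthesis genes 1 rose, the antenna protein gene LHCB4.2 (0.38 ± 0.052, adjusted p = 0.0141 by limma). Its call did not survive leaving out ddm1 replicate 2 (0.0509), wild type replicate 1 (0.0576) or wild type replicate 2 (0.0551). LHCB4.1 differed by 0.35 ± 0.087 and RCA by 0.20 ± 0.051, so that 3 of 3 were higher and 0 lower at an unadjusted p under 0.05, where 8.49% of all probe sets were higher. In the carpel and ovule list SPT (0.29 ± 0.10) and INO (-0.077 ± 0.075), and in the floral organ list UFO (0.0025 ± 0.027) and PTL (-0.13 ± 0.10), were not called by limma, and SPT alone of these 4 had an unadjusted p under 0.05.

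**Figure D5:**
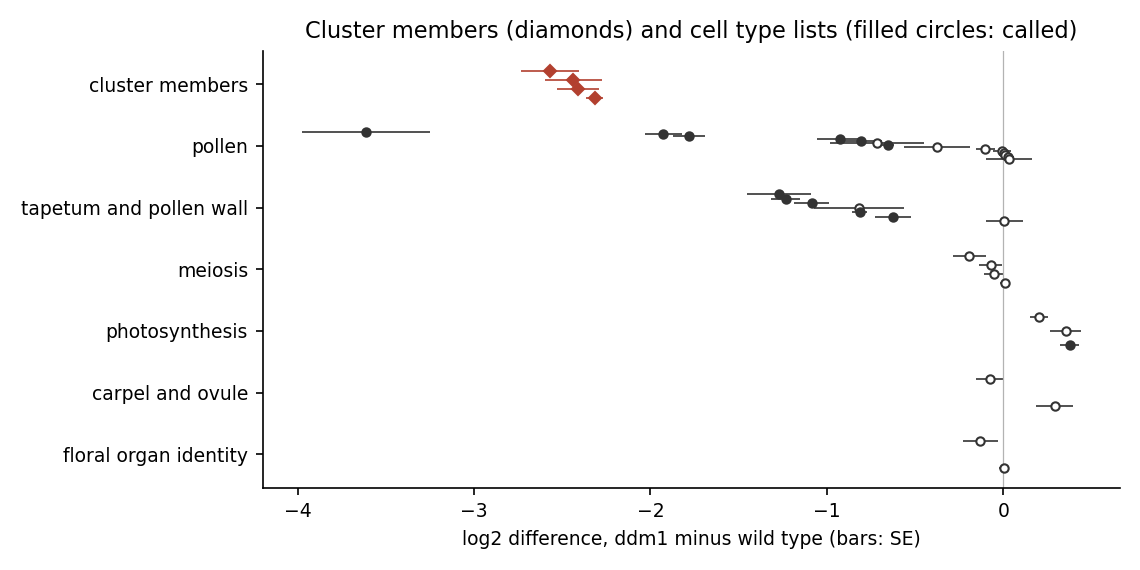
Log2 difference of ddm1 from wild type with its SE for the 4 members (diamonds) and for each measured gene of the cell type lists (circles, filled where called by limma). The members lie between -2.57 and -2.32, beyond all listed genes but VEX1 at -3.61.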

How the data were processed

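Per the submitters' processing notes, the array signals were summarised by GCRMA, whose version, like the baseline of the centring, no source used here gives. That the deposited numbers are log2 values was inferred from GCRMA and from their range (-10.03 to 8.57), and they are centred probe set by probe set. Of 22810 probe sets, 64 controls were left out and 22746 tested. The platform annotation names 1 gene for 13513, several for 503 and none for 8730, and 13367 of those with 1 gene have a nuclear locus in the RefSeq table of assembly TAIR10.1, used for locus order and gene type only.

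The genotypes were compared in R 4.3.3 by limma 3.58.1 (lmFit and eBayes, genotype as the only term, all 6 arrays), two-sided, with Benjamini-Hochberg adjustment over the 22746 probe sets. The fit was tested on simulated data. Counts, windows and figures used Python 3.11.15, pandas 2.3.3 and matplotlib 3.10.9. Only 3 arrays per genotype limit the precision. The members and the lists were chosen with earlier results of these data known. Genes named are the members, called flanking loci and those nearest, up to 4 genes of each list by adjusted p (ACT11, ANX1, ANX2 and the wider flanking loci were added after their values were seen), and the 6 nearest profiles. Planned comparisons with related proteins and promoter motifs were not run, since protein and promoter sequences were not used here.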

Additional observations from a re-analysis of the deposited data

How the results depend on the processing

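The fall of the 4 members kept its direction under the fits that can move it (array weights, median centring and leaving out 1 array) and ran from -2.71 to -2.28 over the single genes; the other fits leave a difference as it is by construction. The cluster stood in 1 of the 3 runs, and the number of runs was 3 to 4 when 1 array was left out and 3 in the other fits. Counts of calls moved more. With array weights, 3597 probe sets were lower and 2185 higher, 5 flanking loci were lower and 3 photosynthesis genes higher. Without variance moderation, 429 were lower (222 at least 2-fold) and 373 higher, with 1 flanking locus lower, 3 tapetum genes lower and 0 photosynthesis genes higher. Deviations of arrays with the same replicate number were only weakly correlated (0.075, 0.090 and 0.016, against -0.091 to 0.023 for unlike numbers). With a replicate block, 553 probe sets were lower (226 at least 2-fold) and 433 higher, with 1 flanking locus lower and 0 photosynthesis genes higher. Centring each array on its median, or a trended robust variance, left 1 flanking locus lower. With 5 loci on each side it was 1, and with 60, a width chosen after seeing the data, 5. Leaving out 1 array gave 629 to 1011 lower and 432 to 788 higher probe sets, 1 lower flanking locus in each fit, 3 to 5 lower tapetum genes and 0 to 2 higher photosynthesis genes. Among 346 adjusted p-values of single loci over the alternatives, a call was lost in 21 and gained in 4. With plain _at probe sets alone, 2 flanking loci were still lower. Windows hold fewer or more loci by construction, and otherwise the cause was not tested. How far above background any of these signals lay is unknown.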

Other observations

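The surroundings were widened to 60 loci on each side after the values had been seen. Of 37 single-gene probe sets, 5 were called lower in ddm1 by limma and 0 higher. Over all probe sets, 5.68% were called lower and 3.50% higher. At an unadjusted p under 0.05, 13 of the 37 were lower and 2 higher, against 14.6% and 8.49% of all probe sets. The added calls lie after the cluster. AT3G28980, 40 positions beyond AT3G28840, stood at -2.18, -1.91 and -1.94 in ddm1, against 0.035, 0.076 and 0 in wild type, a 4.13-fold fall (-2.05 ± 0.080 SE, adjusted p = 9.98e-05). That call held under every alternative run (adjusted p up to 0.00768).

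AT3G28950, 33 positions beyond, stood at -1.64, -0.93 and -1.15 in ddm1, against 0.32, 0.28 and 0.45 in wild type (-1.59 ± 0.19, adjusted p = 0.00798), and its call was lost without variance moderation (0.0502) and with a replicate block (0.0517). AT3G29070, 57 positions beyond, differed by -1.24 ± 0.093 (adjusted p = 0.00151). Between the cluster and these 3 loci, AT3G28940 went the other way, at 0.90, 0.59 and 0.31 in ddm1, against -0.019, 0 and -0.058 in wild type, and was not called (0.63 ± 0.15, adjusted p = 0.0671 by limma). Before the cluster, AT3G28580 varied widely among the mutants, at 1.57, 1.03 and 0.036 in ddm1, against -0.029, -0.075 and 0 in wild type. It was not called (adjusted p = 0.242 by limma). On the same side AT3G28530 (-0.77 ± 0.17, adjusted p = 0.0540 by limma) and AT3G28670 (-0.34 ± 0.077, adjusted p = 0.0586) were lower and not called.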
